A study of Acomys cahirinus and Mus musculus with 10 samples.

Results

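RNA of injured *M. musculus* ear tissue was compared with that of the uninjured ear, at D20 after a 4-mm punch through the pinna and at D0. The D20 samples are labelled fibrotic ear tissue and the D0 samples uninjured ear tissue. All 23103 genes of the D20 table were taken, of 24092 gene numbers listed in any of the 4 *M. musculus* tables, and these 2 groups are 2 of the 10 in the series. By the study's methods, a ring of tissue near the healing margin was taken from 3 sexually mature females per group. The labels name no strain, and a figure legend of the study gives the house mice of its RNA-seq data as the outbred CD1. No mouse carried a transgene or was treated beyond the punch, as far as the labels and methods say. Each gene has 1 mean per group, in normalized counts per library pooled by the authors over the animals, so no SD, n or p-value per gene can be given and animals cannot be compared.

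The ear pinna is a thin plate of elastic cartilage covered on both faces by skin, with hair follicles, sebaceous glands, thin muscle, fat, nerve and vessels. A full-thickness hole in the ear of a laboratory mouse heals at its rim with a collagen-rich scar. Hair follicles cycle between rest and growth, and only the growing follicle makes the proteins of the shaft and of its inner root sheath. In bulk tissue fewer cells of a type and less RNA per cell cannot be told apart, and this holds for each result that follows.

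A gene was called at a posterior probability of differential expression of at least 0.95. Of 23103 genes, 2835 were called higher at D20 (12.3%) and 2750 called lower (11.9%), together 24.2%. Among the 15992 genes with a larger group mean of at least 10, which most members of the gene lists below have, 17.6% were called higher and 17.0% lower. Fold changes are given as log2 of the D20 mean over the D0 mean, after 1 was added to each. The median log2 fold change over all genes was -0.04. The called genes that were higher had a median of 0.92 and those that were lower one of -0.71, and the upper tail was the longer: 233 genes were called higher by at least 8-fold against 83 lower, and 97 against 3 by at least 32-fold. The means summed to 8135238 normalized counts per library at D0 and 7843591 at D20, and scaling both groups to an equal sum would add 0.05 to each log2 fold change. Names were placed for 20305 of the 23103 genes (87.9%).

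Markers of the tissue were in place in both groups. The keratinocyte genes *Krt5*, *Krt14*, *Krt10*, *Krt1* and *Lor* had D0 means from 1870.4 to 38863 and the fibroblast genes *Col1a1*, *Col1a2*, *Col3a1*, *Dcn* and *Lum* from 940.4 to 23420. Genes of a tissue that the ear lacks were near the floor, with *Alb* (liver) at 2.16 at D0 and 2.16 at D20 and *Apoa1* (liver) at 1.98 at D0 and 0.35 at D20. Among cartilage markers *Acan* was at 3877 at D0 and 2443 at D20, while *Matn1*, a matrilin of hyaline cartilage, was at 1.19 at D0 and 0 at D20. Receptor genes of the nose, which skin should lack, reached 10 normalized counts in either group for 1.48% of 877, against 80.2% of the other protein-coding genes.

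**Figure D1:**
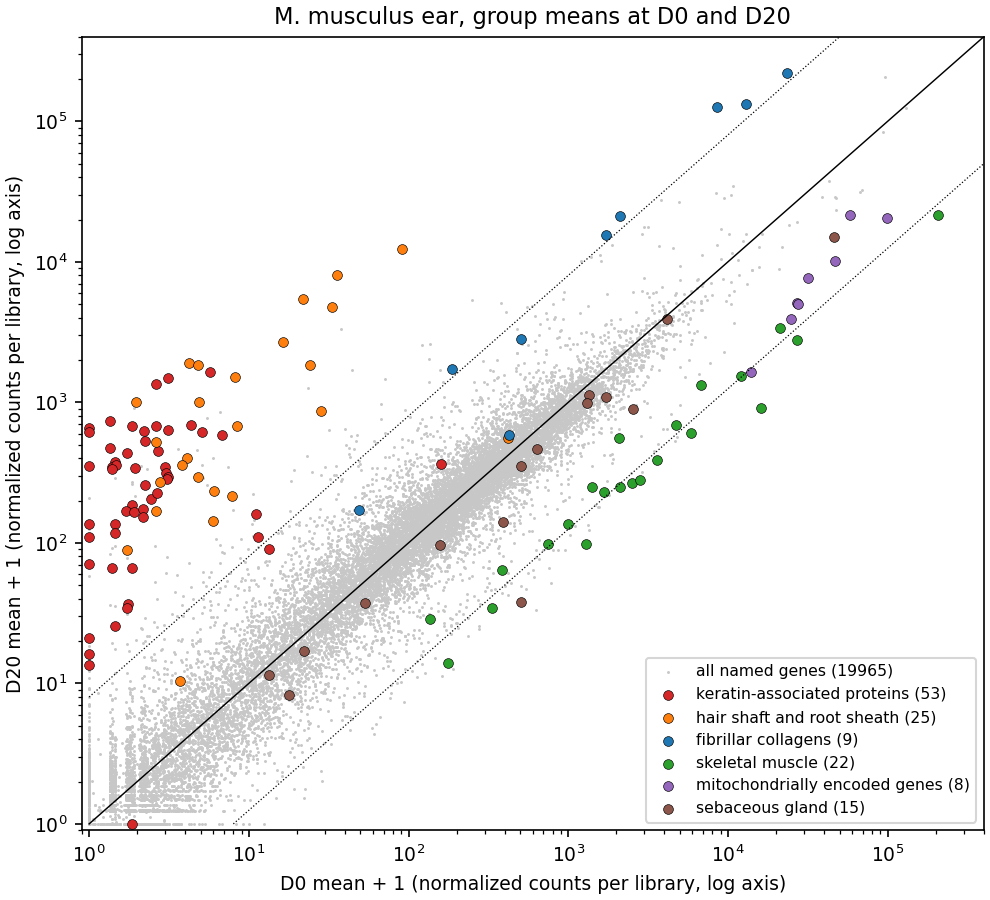
Group mean at D20 against group mean at D0 for 19965 named *M. musculus* genes, in normalized counts per library plus 1 on log axes. The solid line marks equal means and the dotted lines an 8-fold difference. Keratin-associated protein genes stand far above the line near the left edge, and skeletal muscle and mitochondrially encoded genes below it at the right.

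The largest increases were those of hair, whose proteins come from 2 gene families, keratins and keratin-associated proteins (Krtap). Where the larger mean was 100 or more, the 15 genes with the highest log2 fold changes were all hair keratins, keratin-associated protein genes or, in the case of *Gm10229*, an uncharacterized gene inside a Krtap cluster. Keratin-associated proteins form the matrix in which the keratin filaments of the hair shaft are embedded. They fall into proteins rich in glycine and tyrosine and proteins rich in cysteine, whose disulphide bonds harden the hair. The coding sequences of 4 of them are shown to make this difference visible, with the codons of glycine (GGN) and tyrosine (TAC, TAT) in capitals in the first 3 and those of cysteine (TGC, TGT) in capitals in the fourth. They come from GENCODE vM21 on GRCm38 and run 5′ to 3′ on the coding strand, which is the minus strand for all 4.
Krtap8-1: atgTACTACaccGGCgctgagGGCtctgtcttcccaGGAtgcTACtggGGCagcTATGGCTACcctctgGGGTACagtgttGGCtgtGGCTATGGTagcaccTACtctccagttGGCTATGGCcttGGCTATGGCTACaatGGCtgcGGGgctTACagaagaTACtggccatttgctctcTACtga
Krtap6-5: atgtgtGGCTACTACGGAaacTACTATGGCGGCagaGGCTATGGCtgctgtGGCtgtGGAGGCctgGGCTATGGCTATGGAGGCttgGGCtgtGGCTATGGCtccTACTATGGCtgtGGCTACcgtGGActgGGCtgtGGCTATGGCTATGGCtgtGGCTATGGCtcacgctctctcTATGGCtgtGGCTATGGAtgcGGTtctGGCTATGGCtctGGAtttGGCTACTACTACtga
Krtap19-3: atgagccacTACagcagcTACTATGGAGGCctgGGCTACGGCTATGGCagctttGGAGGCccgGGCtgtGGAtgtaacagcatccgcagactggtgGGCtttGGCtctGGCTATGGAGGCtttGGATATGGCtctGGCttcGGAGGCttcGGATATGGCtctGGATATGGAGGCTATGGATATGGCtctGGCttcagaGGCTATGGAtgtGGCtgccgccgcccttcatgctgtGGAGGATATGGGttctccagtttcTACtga
Krtap3-1: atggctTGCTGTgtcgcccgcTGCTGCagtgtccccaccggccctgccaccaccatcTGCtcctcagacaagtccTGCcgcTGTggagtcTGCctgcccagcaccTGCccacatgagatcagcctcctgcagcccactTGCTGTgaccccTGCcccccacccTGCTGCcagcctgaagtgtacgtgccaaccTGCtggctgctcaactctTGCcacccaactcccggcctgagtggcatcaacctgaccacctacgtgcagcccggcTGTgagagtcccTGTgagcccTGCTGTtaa

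*Krtap8-1* (chr16:89487379-89487952, 186 coding bases) had 15 glycine and 14 tyrosine codons among 61, and its level was 1.63 at D0 and 1355 at D20. *Krtap6-5* (chr16:89047289-89047883) had 67.9% glycine and tyrosine codons and was at 0.35 at D0 and 473 at D20. *Krtap19-3* (chr16:88877513-88878038) had 54.0% and was at 0 at D0 and 654 at D20. *Krtap3-1* (chr11:99566027-99566630) had 20 cysteine codons among 98, a share near the median of the other families given below and under that of the cysteine-rich class, and was at 2.11 at D0 and 295 at D20. All 4 thus stood at no more than 2.11 at D0 and at no less than 295 at D20.

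Of 53 Krtap genes measured, 50 were called higher and none lower, against 12.3% and 11.9% of all genes. For 9 of them the D0 mean was 0, so that their fold change is a lower bound, set against a floor of 3 counts over the 3 libraries. With those 9 at their bound the median log2 fold change of the family was 6.68. *Krtap14*, at 0 at D0 and 613 at D20, was at least 613-fold higher, and *Krtap5-4* at least 349-fold higher. The 3 members not called were *Krtap9-5*, at 0 at D0 and 15.2 at D20, *Krtap20-2*, at 0 at D0 and 12.5 at D20, and *Krtap13*, at 0.85 at D0 and 0 at D20. *Krtap3-2* stood apart at D0 and rose from 159 to 362, while its neighbours *Krtap3-1* and *Krtap3-3* rose from 2.11 to 295 and from 5.76 to 581. Because Krtap copies share sequence, RSEM divided reads among them by estimate, and the level of any 1 copy is less certain than that of its class.

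By codon content the 15 Krtap genes of families 6, 7, 8, 16-3, 19, 20, 21 and 22 held a median of 62.9% glycine and tyrosine codons (lowest 29.9%) and 8.05% cysteine codons. The 20 of families 4, 5, 9, 10, 12 and 17 held 37.3% cysteine codons, and the 18 of the other families 20.2%. At D20 the glycine- and tyrosine-rich class had a median log2 fold change of 8.02 with 14 of 15 called higher. The median was 6.41 in the cysteine-rich class (19 of 20) and 6.51 in the other families (17 of 18). The median of the ratio of D20 over D15, on the log2 scale, was 1.68 in the first class, 0.73 in the second and 1.18 in the third, with D15 put on the scale of the D20 table through the D0 animals that both tables share. These medians are descriptions, and their differences were not tested. The classes, like the lists of keratin layers used next, were written after the values had been seen.

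**Figure D2:**
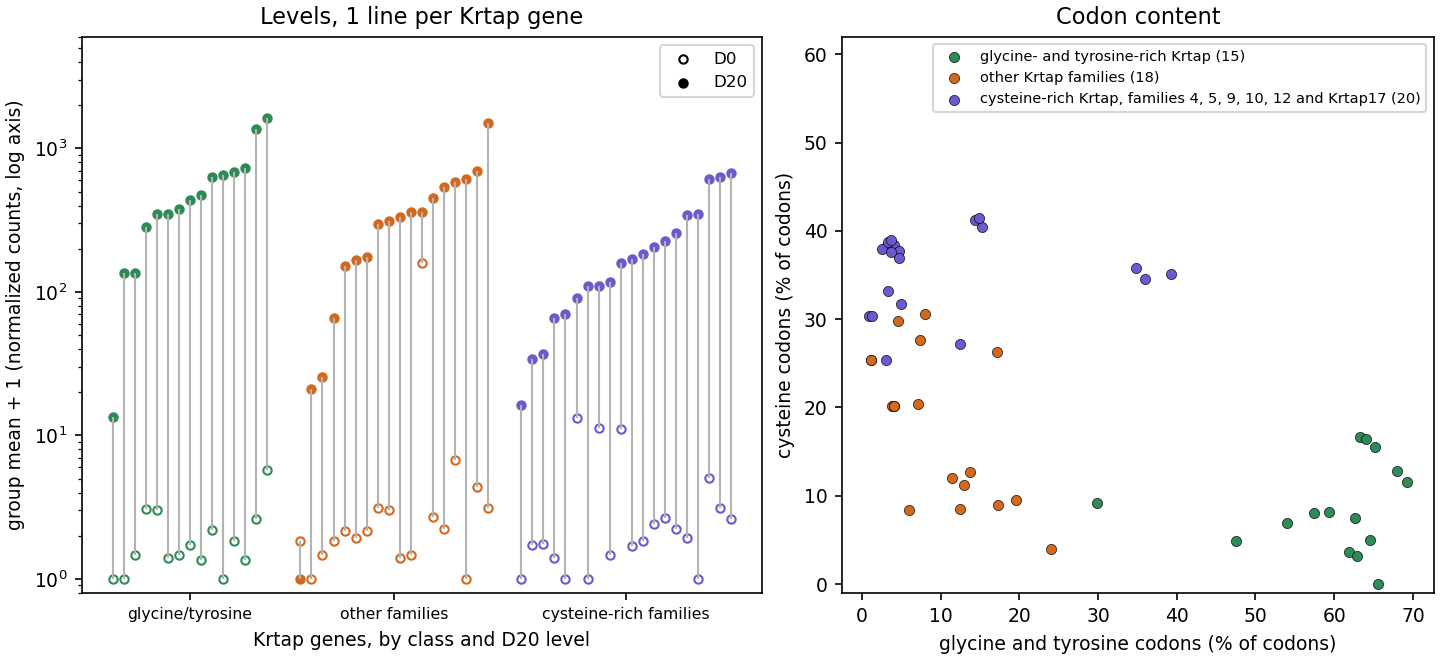
Left, group means at D0 (open) and D20 (filled) of 53 Krtap genes in normalized counts per library plus 1 on a log axis, 1 line per gene, by class. Right, the percentage of cysteine codons against that of glycine and tyrosine codons for the same genes, where the glycine- and tyrosine-rich class has a median of 62.9% on the horizontal axis and the class of families 4, 5, 9, 10, 12 and 17 a median of 37.3% on the vertical one.

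Keratin and Krtap genes lie in clusters, and the clusters differed in their share of calls. On chromosome 16 the Krtap cluster (chr16:88610705-89571183, GRCm38) held 31 named genes, of which 25 were called higher and none lower, the Riken and Gm gene models inside it included. The type I keratin cluster on chromosome 11 (chr11:99315516-100261029), which encloses more Krtap genes, held 60, with 47 higher and 2 lower. In the type II keratin cluster on chromosome 15 (chr15:101473478-102032027), 13 of 26 were higher and 1 was lower, *Krt77*. The epidermal differentiation complex on chromosome 3 (chr3:90511034-93564643) was mixed, with 15 higher and 12 lower of 68, beside 12.3% and 11.9% of all genes. Its largest increases were those of *Tchh*, *Tchhl1* and *Crnn*.

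The calls covered the inner root sheath, cortex and cuticle of the growing follicle. The inner root sheath, which moulds the shaft, was called higher for 9 of 9 genes, with *Krt71* from 34.7 to 8062, *Krt25* from 32.4 to 4745 and trichohyalin (*Tchh*) from 90.6 to 12437. Of the shaft keratins, 7 of 7 of type I and 4 of 4 of type II were called higher. *Krt33b* rose from 0.97 to 1011, *Krt34* from 3.24 to 1900, *Krt83* from 20.9 to 5419 and *Krt86* from 3.78 to 1842. The cuticle keratins *Krt32* and *Krt82* rose from 6.89 to 215 and from 1.63 to 166. *S100a3* of the hair cuticle rose from 27.3 to 871, and *Padi3*, which citrullinates trichohyalin, from 3.09 to 400. In the whole list of 25 hair shaft and root sheath genes, 24 were called higher, and only *Gsdma3* was not, at 2.69 at D0 and 9.33 at D20.

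Genes of the hair matrix and regulators of the follicle went both ways. Of 20, 2 of which are the layer keratins *Krt75* and *Krt15* rather than regulators, 6 were called higher and 3 lower, with a median log2 fold change of 0.26. The shares were 30% and 15%, beside 17.6% and 17.0% of genes with a mean of at least 10, which all 20 had. The share called lower is thus no larger than that of such genes. *Shh*, the growth signal of the hair bulb, rose from 0.46 to 10.9 and its target *Gli1* from 64.4 to 123. *Lgr5*, a marker of follicle stem and progenitor cells, rose from 83.3 to 301, *Hoxc13*, a regulator of hair keratin genes, from 31.8 to 92.1 and the companion layer keratin *Krt75* from 66.0 to 966. *Gata3*, a factor of the inner root sheath and epidermis, fell from 1608 to 656. *Krt15* of the bulge (3595 at D0 and 3412 at D20), *Sox9* (585 at D0 and 569.9 at D20) and *Lhx2* (33.0 at D0 and 61.6 at D20) were not called.

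The same lists had these medians at the other times, each against the same D0 animals and in tables normalized separately. Hair shaft and root sheath genes had a median log2 fold change of -0.31 (D5), 4.84 (D10), 6.44 (D15) and 6.61 (D20), and Krtap genes of -0.59 (D5), 3.41 (D10), 5.88 (D15) and 6.68 (D20). *Krt71* had -0.47 (D5), 5.84 (D10), 7.47 (D15) and 7.82 (D20), and *Krtap8-1* had -0.64 (D5), 5.06 (D10), 7.64 (D15) and 9.01 (D20). *Krt15* had -2.11 (D5), -1.86 (D10), -1.30 (D15) and -0.08 (D20). The hair products thus stood near or below the D0 level at D5 and at their highest value of the 4 times at D20.

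In the epidermis between follicles the changes went both ways. Of 36 differentiation genes, 7 were called higher and 12 lower, with a median of -0.21. The shares were 19.4% and 33.3%, beside 12.3% and 11.9% of all genes. Among genes with a mean of at least 10, which 31 of the 36 had, 17.6% and 17.0% were called. *Krt1*, the type II keratin of suprabasal cells, rose from 1870.4 to 13195 while its partner *Krt10* fell from 38863 to 28755, so that the ratio of *Krt10* to *Krt1* counts, not corrected for length, went from 20.8 to 2.18. *Krt2*, of the upper suprabasal layers, was at 47119 at D0 and 28801 at D20 and not called. Filaggrin (*Flg*) rose from 807 to 5003 while its relative *Flg2* fell from 66869 to 31182. Repetin (*Rptn*) rose from 30.7 to 631, and the cornified envelope proteins *Sprr1a* and *Sprr1b* rose from 46.4 to 582 and from 6.87 to 93.1. *Krt77* fell from 1890 to 371 and the desmosomal cadherin *Dsg1a* from 20945 to 8959.5. Sprr and Lce genes are also close copies of each other, with the same limit on single members as for Krtap.

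Keratins of wounded epidermis remained above D0. *Krt6a* rose from 136 to 2597, *Krt16* from 42.7 to 577, *Krt6b* from 34.4 to 302 and *Krt17* from 617 to 2322. All 4 are also made in growing hair follicles. *Krt6b* had 10.76 (D5), 8.58 (D10), 7.12 (D15) and 3.10 (D20) against the same D0, and the median of the 4 was 9.11 (D5), 7.08 (D10), 5.95 (D15) and 3.41 (D20). Of 18 basal and wound keratinocyte genes, which include these, 5 were called higher and 4 lower, shares of 27.8% and 22.2%. Among genes with a mean of at least 10, which 16 of the 18 had, 17.6% and 17.0% were called. The basal keratins *Krt5* (16362 at D0 and 15837 at D20) and *Krt14* (15589.9 at D0 and 12735 at D20) were not called. The basal transcription factor *Trp63* fell from 3117 to 1543, the laminin-332 chains *Lama3* and *Lamb3* from 2062 to 1133 and from 911 to 515, and the integrin *Itgb6* from 226 to 80.7. The alarmins *S100a8* and *S100a9*, with log2 fold changes of 7.77 and 8.60 at D5, were at 1.14 and 1.36 at D20 and were not called.

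Sebaceous gland genes were lower or not called. Of 15, 8 were called lower (53.3%) and none higher, with a median of -0.53. Among genes with a mean of at least 10, which all 15 had, 17.0% were called lower and 17.6% higher. *Scd1* and *Scd3*, desaturases of sebum fatty acids, fell from 46120.4 to 15129.5 and from 505 to 37.3, *Far2*, which makes wax alcohols, from 2556 to 892, and *Cidea* from 392 to 139.5. *Fasn*, at 4136 at D0 and 3912 at D20, was not called. The list had medians of -1.49 (D5), -1.83 (D10), -1.35 (D15) and -0.53 (D20).

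**Figure D3:**
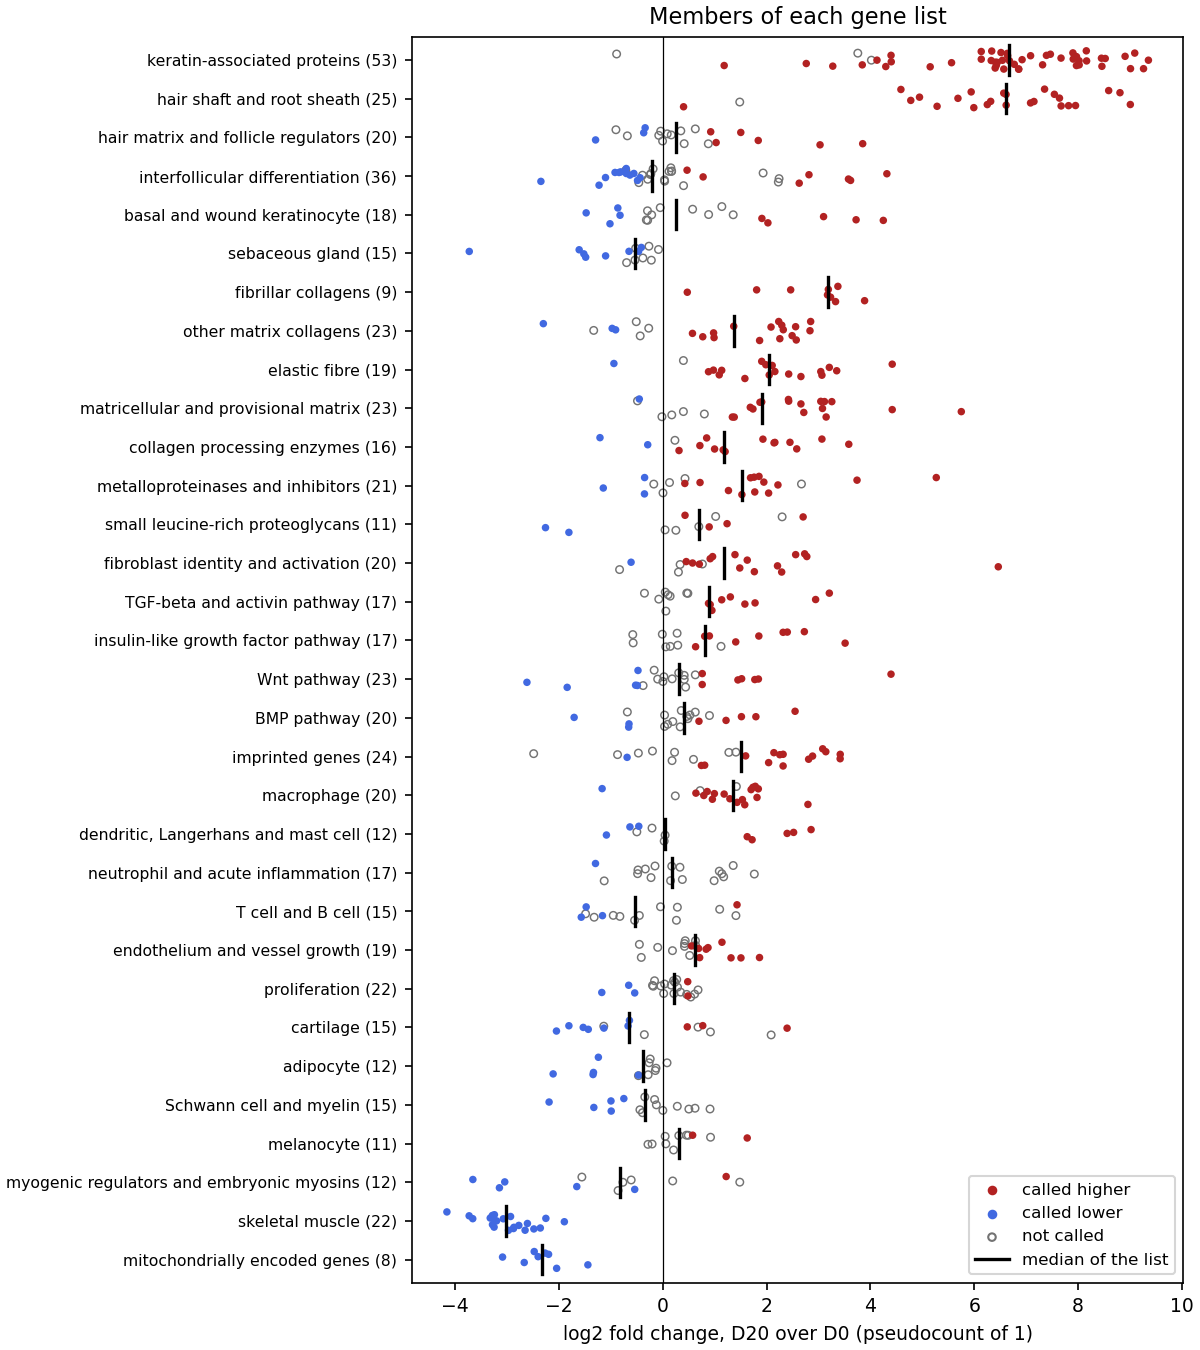
Log2 fold change of D20 over D0 for each member of 32 gene lists, filled red where called higher, filled blue where called lower and open where not called, with a black bar at the median of the list and the number of members in parentheses. Hair lists lie to the right at medians of 6.68 and 6.61, collagens and elastic fibre genes between, and skeletal muscle to the left at -3.02.

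Matrix genes made up another large group. The 9 fibrillar collagens measured, the ropes of dermis and cartilage, were all called higher, and their sum was 0.61% of all normalized counts at D0 and 6.67% at D20. *Col1a1* rose from 8595 to 127354 and *Col1a2* from 12888 to 133704, and the ratio of their counts, not corrected for length, went from 0.67 to 0.95. Collagen V, which nucleates fibrils, rose from 2106 to 21189 for *Col5a1* and from 1716 to 15506 for *Col5a2*. *Col2a1*, the main collagen of cartilage, rose from 187 to 1717.

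Of 23 other collagens, 16 were called higher and 3 lower. The collagen VI chains *Col6a1*, *Col6a2* and *Col6a3* rose to 17721, 17777 and 27569, log2 fold changes of 2.49, 2.57 and 2.85. *Col12a1*, which decorates fibrils, rose from 1572 to 11244. Collagen IV divided by chain: *Col4a1* and *Col4a2*, of all basement membranes, rose from 923 to 5453 and from 824 to 4047, whereas *Col4a3* and *Col4a6* fell from 60.0 to 11.4 and from 443 to 225. Of 21 basement membrane genes, 13 were called higher and 4 lower. Laminins divided by chain too, with *Lamb1* from 478 to 2241 and *Lama4* from 777 to 1609.5 higher and the epidermal chains *Lama3* and *Lamb3* lower. *Col17a1*, of the hemidesmosome, fell from 13134 to 7009.

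Elastic fibre genes were called higher for 17 of 19, with a median log2 fold change of 2.05. Elastin (*Eln*) rose from 1608 to 10188, *Fbn1* from 2911 to 15662 and *Fbn2*, the fibrillin of developing tissue, from 248 to 5327. The microfibril proteins *Mfap2*, *Mfap4* and *Mfap5* rose from 41.1 to 429, from 397 to 1576 and from 78.6 to 329. Elastin was late, with 0.10 (D5), 1.74 (D10), 2.62 (D15) and 2.66 (D20) against D0. *Efemp1* alone was called lower (from 420.3 to 219), and *Fbln1* was not called.

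Provisional and matricellular proteins, which cells deposit during repair and development, were called higher for 17 of 23. The tenascin *Tnn* had the largest change of the list, from 22.4 to 1263. Versican (*Vcan*) rose from 550.3 to 4779.6, periostin (*Postn*) from 4963 to 26609 and *Sparc* from 10693 to 34447. *Hmcn1*, a large protein of basement membranes and cell junctions, rose from 377 to 5127. *Ccn2*, a matricellular protein linked to fibrosis, was the 1 member called lower, from 2172 to 1589, and *Spp1* was not called, at 33.0 at D0 and 37.4 at D20 after 3.66 at D5.

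Enzymes that process collagen were called higher for 13 of 16. The lysyl oxidases *Lox*, *Loxl1* and *Loxl2*, which cross-link collagen and elastin, rose from 757 to 3389, from 164 to 1386 and from 724 to 4339, whereas *Loxl4* fell from 1851 to 801. The procollagen proteases *Adamts2* and *Bmp1* rose from 662 to 3628 and from 483 to 1843, and the collagen chaperone *Serpinh1* from 620.1 to 2746. Of 24 metalloproteinases, plasminogen activators and their inhibitors listed, 21 were measured, 13 of them called higher and 3 lower. *Mmp9* and *Timp1* had no placed name. Shares of 61.9% and 14.3% stand beside 17.6% and 17.0% of genes with a mean of at least 10. *Adam12* rose from 43.1 to 1702, the gelatinase *Mmp2* from 1752 to 5944, its activator *Mmp14* from 651 to 3035 and the inhibitor *Timp2* from 2539 to 6112, while *Timp3* fell from 5598 to 4398 and *Timp4* from 82.0 to 36.6. The collagenase *Mmp13*, at 1.54 at D0 and 15.2 at D20, was not called.

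Small leucine-rich proteoglycans, which control fibril width, were divided. *Lum* rose from 940.4 to 6139, *Ogn* from 689.6 to 1631 and *Bgn* from 5038 to 9376, while *Omd* fell from 1014 to 212 and *Chad* from 1044 to 298. *Dcn* (6896 at D0 and 11175 at D20) and *Fmod* (2128 at D0 and 2198 at D20) were not called. In all 4 of 11 were called higher and 2 lower, shares of 36.4% and 18.2%. Among genes with a mean of at least 10, which all 11 had, 17.6% and 17.0% were called. The share called lower is thus near that of such genes.

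Among fibroblast genes, 15 of 20 were called higher. *Lrrc15*, a surface protein of activated fibroblasts, rose from 36.6 to 3321, the cadherin *Cdh11* from 294 to 1959.9, the collagen receptor *Itga11* from 80.6 to 481 and the transcription factor *Prrx2* from 19.5 to 139.7. *Pi16*, of adventitial fibroblasts, fell from 280 to 183. Contractile genes of myofibroblasts and smooth muscle differed among themselves, with 4 of 12 called higher and 4 lower, 33.3% each way. Among genes with a mean of at least 10, which 11 of the 12 had, 17.6% were called higher and 17.0% lower. *Tagln* rose from 111 to 248, *Cald1* from 334 to 737 and *Myl9* from 118 to 209, while *Tpm1*, *Tpm2* and *Des*, which skeletal muscle also expresses, fell from 4998 to 1774, from 4403 to 821 and from 1910.3 to 393, and *Lmod1*, a leiomodin of smooth muscle, from 73.1 to 22.1. *Acta2*, smooth muscle actin, had 2.52 (D5), 2.22 (D10), 1.84 (D15) and 0.72 (D20) and was not called at D20.

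Of 17 genes of the TGF-beta and activin pathway, 9 were called higher and none lower. The ligands *Tgfb3* and *Tgfb1* rose from 396 to 1363 and from 119 to 226, and *Tgfb2*, at 382 at D0 and 396 at D20, was not called. The receptor *Tgfbr2* rose from 1286 to 3177, and the latent binding proteins *Ltbp1*, *Ltbp2*, *Ltbp3* and *Ltbp4* had log2 fold changes of 1.58, 3.21, 1.14 and 0.88. The intracellular *Smad2* (742 at D0 and 798 at D20), *Smad3* (504 at D0 and 526 at D20) and *Smad7* (138 at D0 and 191 at D20) were not called.

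Insulin-like growth factor genes were called higher for 9 of 17 and lower for none. *Igf1* rose from 740 to 3912 and *Igf2* from 335 to 1678. The binding protein *Igfbp4* rose from 616 to 4087, and *Pappa*, the protease that cleaves it, from 66.0 to 764. Neither the receptor *Igf1r* (1385 at D0 and 1444 at D20) nor the substrate *Irs1* (1188 at D0 and 1182 at D20) was called.

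*Igf2* belongs to the imprinted genes, which are expressed from 1 parental allele and include many fetal growth regulators. Of 24 imprinted genes, 14 were called higher and 1 lower, with a median of 1.50. *H19* and *Cdkn1c*, neighbours of *Igf2* on distal chromosome 7, rose from 157 to 1686 and from 97.3 to 433. On chromosome 12 *Dlk1*, *Meg3*, *Rtl1*, *Rian* and *Mirg* rose from 27.4 to 302, from 475 to 3340.2, from 31.1 to 282, from 193 to 1644 and from 16.8 to 131. *Plagl1*, *Grb10* and *Mest* on other chromosomes rose from 285 to 864, from 365 to 1505 and from 58.4 to 283. *Kcnq1ot1* was the 1 member called lower, from 14119.8 to 8784, and *Peg3* (850.2 at D0 and 742 at D20) was not called. *Dlk1* had -0.98 (D5), 1.75 (D10), 2.95 (D15) and 3.42 (D20), and the median of the list was 0.38 (D5), 1.75 (D10), 1.79 (D15) and 1.50 (D20). This list was written after the values had been seen.

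Wnt genes were called higher for 7 of 23 and lower for 5, shares of 30.4% and 21.7%. Among genes with a mean of at least 10, which 22 of the 23 had, 17.6% and 17.0% were called. The non-canonical ligands *Wnt5a* and *Wnt11* rose from 156 to 564 and from 27.7 to 97.1. Secreted Wnt binders went opposite ways: *Sfrp2* rose from 121 to 2563, while *Wif1* fell from 3926 to 640.5 and *Frzb* from 576 to 160.4. The canonical target *Axin2* fell from 702 to 489 and the target *Nkd1* rose from 101 to 173. In the BMP pathway 5 of 20 were higher and 3 lower, beside the 17.6% and 17.0% of genes with a mean of at least 10. Of the BMP antagonists, *Grem1* and *Chrd* rose from 52.4 to 123 and from 20.3 to 73.0, and noggin (*Nog*) fell from 57.4 to 16.9.

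Skeletal muscle genes were among the lowest of the named genes. All 22 mature muscle genes were called lower, with a median log2 fold change of -3.02, and their sum was 3.93% of all normalized counts at D0 and 0.45% at D20. Titin (*Ttn*) fell from 205820 to 21683, the fast myosin *Myh4* from 16147 to 905, *Myh1* from 21120.2 to 3365, creatine kinase (*Ckm*) from 3596 to 391 and skeletal actin (*Acta1*) from 6760.4 to 1319.6. The members ranged from -4.16 (*Myh4*) to -1.89 (*Myh2*). The 15 named genes with the lowest log2 fold changes among those with a mean of at least 100 included *Mybpc2* (from 624 to 32.4), a myosin-binding protein, *Mstn* (from 188 to 11.7), the muscle growth inhibitor myostatin, *Trdn* (from 1356 to 122), of the calcium release unit, and *Smtnl1*. The one sebaceous gene among them was *Scd3*. Of the gene numbers with such a mean, 3 were called lower still, 2 without a name, at 0 at D20, and 1 a second number placed on *Ttn*.

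The muscle list had medians of -2.95 (D5), -2.86 (D10), -2.99 (D15) and -3.02 (D20). Genes of muscle stem cells and newly formed fibres varied more. *Pax7*, of satellite cells, fell from 21.4 to 0.78 and *Myf6* from 88.9 to 9.17. *Myh3*, the embryonic myosin, fell from 1794 to 217, and *Myh8*, the perinatal one, from 364 to 250.2. *Myog*, the factor of differentiating myoblasts, had 3.30 (D5), 2.69 (D10), 1.39 (D15) and 0.19 (D20) and was not called at D20, at 8.72 at D0 and 10.1 at D20. *Mymk*, the fusion protein myomaker, had 4.55 at D5 and 1.49 at D20 and was not called at D20. Of the 12 genes of this list, 5 were called lower and 1 higher, shares of 41.7% and 8.33%. Among genes with a mean of at least 10, which 9 of the 12 had, 17.0% and 17.6% were called.

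Mitochondrially encoded genes fell as well. All 8 measured, 6 subunits of the respiratory chain and both rRNAs, were called lower, and their sum was 4.05% of all normalized counts at D0 and 0.97% at D20. *mt-Co1* fell from 98902 to 20589, *mt-Cytb* from 26997 to 5120.1 and *mt-Nd2* from 14012 to 1652. The rRNAs *mt-Rnr1* and *mt-Rnr2*, a large part of the sum, fell from 58474 to 21550 and from 46890 to 10224. The libraries were rRNA-reduced, so the levels of these 2 may also depend on how far rRNA was removed, which was not tested. A second gene number, in the order of chromosome 1, held the same pair of means as *mt-Atp6*, so the level of that member is uncertain. Of 79 subunits encoded in the nucleus, 41 were called lower and 1 higher, with a median of -0.41, far smaller than the -2.33 of the mitochondrial list. The deepest were the muscle forms *Cox6a2* (from 235 to 20.6), *Cox7a1* (from 123 to 16.1) and *Cox8b* (from 186 to 27.7). The share of mitochondrial counts is also a measure of RNA and tissue quality, and its part in these results was not tested. These 2 lists were written after the values had been seen.

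Cartilage genes were called lower for 7 of 15 and higher for 3, shares of 46.7% and 20%, beside 11.9% and 12.3% of all genes. Among genes with a mean of at least 10, which 13 of the 15 had, 17.0% were called lower and 17.6% higher. This list leaves out several cartilage collagens counted with the collagens above. Of those, *Col2a1*, *Col9a2* (from 151 to 300) and *Col9a3* (from 385 to 761) were called higher and *Col10a1* (246 at D0 and 172 at D20) was not called. *Cytl1*, a cartilage cytokine, fell from 6599 to 1597, aggrecan (*Acan*) from 3877 to 2443 and the transcription factors *Sox5* and *Sox6* from 322 to 146 and from 1073 to 371. *Matn3*, of growing cartilage, rose from 19.7 to 108 and *Col9a1* from 189 to 323, in the same direction as *Col2a1*.

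Lists of fat and nerve had medians nearer to D0 at D20 than at the earlier times. Of 12 adipocyte genes, 5 were called lower (41.7%) and none higher, beside 17.0% and 17.6% of genes with a mean of at least 10. The adipocyte list had medians of -1.57 (D5), -1.65 (D10), -1.75 (D15) and -0.37 (D20). *Slc2a4*, the insulin-responsive glucose transporter, fell from 318 to 72.8 and *Plin4* from 1552 to 612, while leptin (*Lep*), at 46.0 at D0 and 48.8 at D20, and *Plin1*, at 121 at D0 and 101 at D20, were not called. Schwann cell and myelin genes had medians of -1.44 (D5), -1.12 (D10), -0.64 (D15) and -0.34 (D20). Of these 15 genes, 5 were called lower (33.3%) and none higher, beside the same 17.0% and 17.6%. *S100b*, a calcium-binding protein of Schwann cells and cartilage, fell from 731 to 159.7. *Sox10*, the Schwann and melanocyte factor, was at 34.7 at D0 and 66.2 at D20 and not called. Melanocyte genes were called higher for 2 of 11, *Kit* and *Mitf*, a share near the 17.6% of genes with a mean of at least 10, and *Tyr* (172 at D0 and 178 at D20) and *Dct* (145 at D0 and 179.9 at D20) were not called.

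Immune cell genes were listed by cell type. Macrophage genes were called higher for 16 of 20, with a median of 1.36. *Trem2*, a lipid receptor of macrophages, rose from 6.09 to 48.3, lysozyme (*Lyz2*) from 529.6 to 1902, the mannose receptor *Mrc1* from 826 to 1648 and the defining markers *Adgre1* and *Csf1r* from 139 to 317 and from 620.4 to 1206. The complement chains *C1qa*, *C1qb* and *C1qc* had log2 fold changes of 1.43, 1.70 and 1.74. *Itgam* fell from 166 to 73.6. *Cd163*, of resident macrophages, had 0.50 (D5), -0.33 (D10), -0.29 (D15) and 0.86 (D20).

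Several mast cell genes were called higher. The granule proteases *Mcpt4* and *Tpsb2* rose from 79.0 to 420.5 and from 47.4 to 349.9, the IgE receptor chains *Fcer1a* and *Ms4a2* from 5.40 to 35.8 and from 43.2 to 145, and *Kit*, which melanocytes share, from 145 to 451. In the list of dendritic, Langerhans and mast cell genes, 5 of 12 were called higher, which are the 5 just given, and 3 lower. Shares of 41.7% and 25% stand beside 17.6% and 17.0% of genes with a mean of at least 10. The list of mast cell genes alone holds those 5 and was written after the values had been seen. *Cd207* of Langerhans cells fell from 149.9 to 70.2. Of 15 T and B cell genes, 1 was called higher and 3 lower. The shares were 6.67% and 20%, beside 12.3% and 11.9% of all genes. All 3 called lower are among the 8 of the 15 with a mean of at least 10, and 17.0% of genes with such a mean were called lower. The T cell receptor genes *Cd3e* and *Cd3g* fell from 58.7 to 19.1 and from 73.7 to 25.9 while *Cd4*, which macrophages can share, rose from 34.9 to 95.8.

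Genes of acute inflammation were mostly not called. Of 17 neutrophil and inflammatory genes, none was called higher and 1 lower (*Il1a*, from 123 to 49.0), and the list had medians of 2.16 (D5), 1.13 (D10), 1.34 (D15) and 0.17 (D20). With the 2 members at 0 at D0 set at their bound, the D20 median was 0. Only 8 of the 17 had a mean of at least 10 in either group, and the rest are near the floor of these libraries. *Il1b* had 5.59 (D5), 3.32 (D10), 4.46 (D15) and 0.38 (D20). Among 31 chemokines and receptors, 6 were called higher and 2 lower. The shares were 19.4% and 6.45%, beside 12.3% and 11.9% of all genes. All 6 called higher are among the 19 of the 31 with a mean of at least 10, and 17.6% of genes with such a mean were called higher. Those higher included *Ccr1* (from 4.11 to 30.6), *Ccl8* (from 45.5 to 145) and *Cxcl12* (from 532 to 1513), and those lower were the skin chemokine *Ccl27a* (from 67.0 to 19.9) and *Ccl11* (from 79.8 to 26.9).

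Endothelial genes were called higher for 9 of 19 and lower for none, with log2 fold changes from 0.56 for the receptor *Kdr* to 1.87 for *Pdpn*, which lymphatic vessels and fibroblasts share. The endothelial receptor *Tie1* rose from 92.2 to 264, the lymphatic growth factor *Vegfc* from 22.6 to 57.8, the tight junction protein *Cldn5* from 58.5 to 130.3, and the junction proteins *Pecam1* and *Cdh5* from 411 to 674 and from 301 to 486. *Vegfa*, at 291 at D0 and 213 at D20, was not called. Haemoglobin and erythrocyte genes were called higher for 4 of 5, with *Hbb-bs* from 357 to 1482. Of 22 proliferation genes, 2 were called higher and 3 lower, with a median of 0.21 after 1.14 at D5. The shares were 9.09% and 13.6%, under the 17.6% and 17.0% of genes with a mean of at least 10, which all 22 had. *Mki67* fell from 2199 to 1514 and *Mcm2* rose from 111 to 157. Of 10 cell-cycle inhibitors, *Cdkn1c* was called higher, from 97.3 to 433, and *Cdkn1b*, *Btg2* and *Rb1* lower, with log2 fold changes of -0.36, -0.36 and -0.78. Those shares were 10% and 30%, beside 12.3% and 11.9% of all genes. Among genes with a mean of at least 10, which 9 of the 10 had, 17.6% and 17.0% were called. *Cdkn1a*, at 597 at D0 and 554 at D20, was not called.

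**Figure D4:**
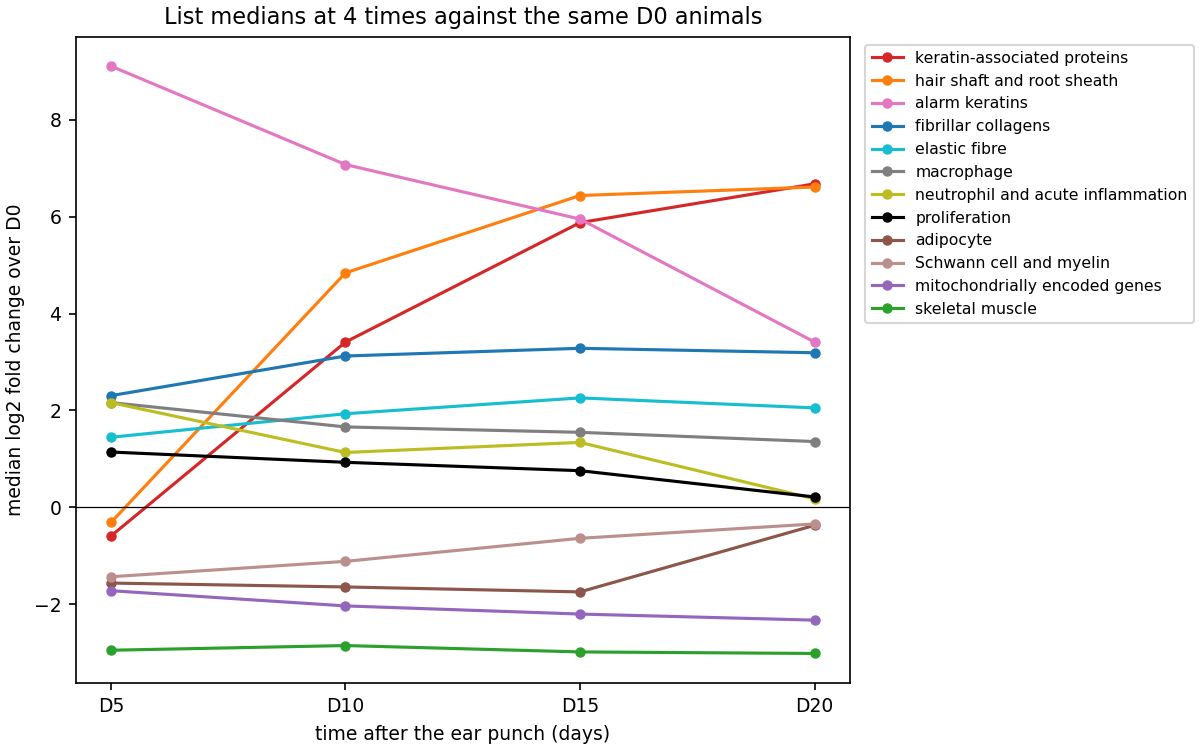
Median log2 fold change over D0 of 12 gene lists at D5, D10, D15 and D20, each time in its own table but against the same D0 animals. Hair lists climb to 6.61 and 6.68 at D20, the wounded-epidermis keratins (shown as alarm keratins) decline from 9.11 to 3.41, and skeletal muscle stays near -3.02.

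**Figure D5:**
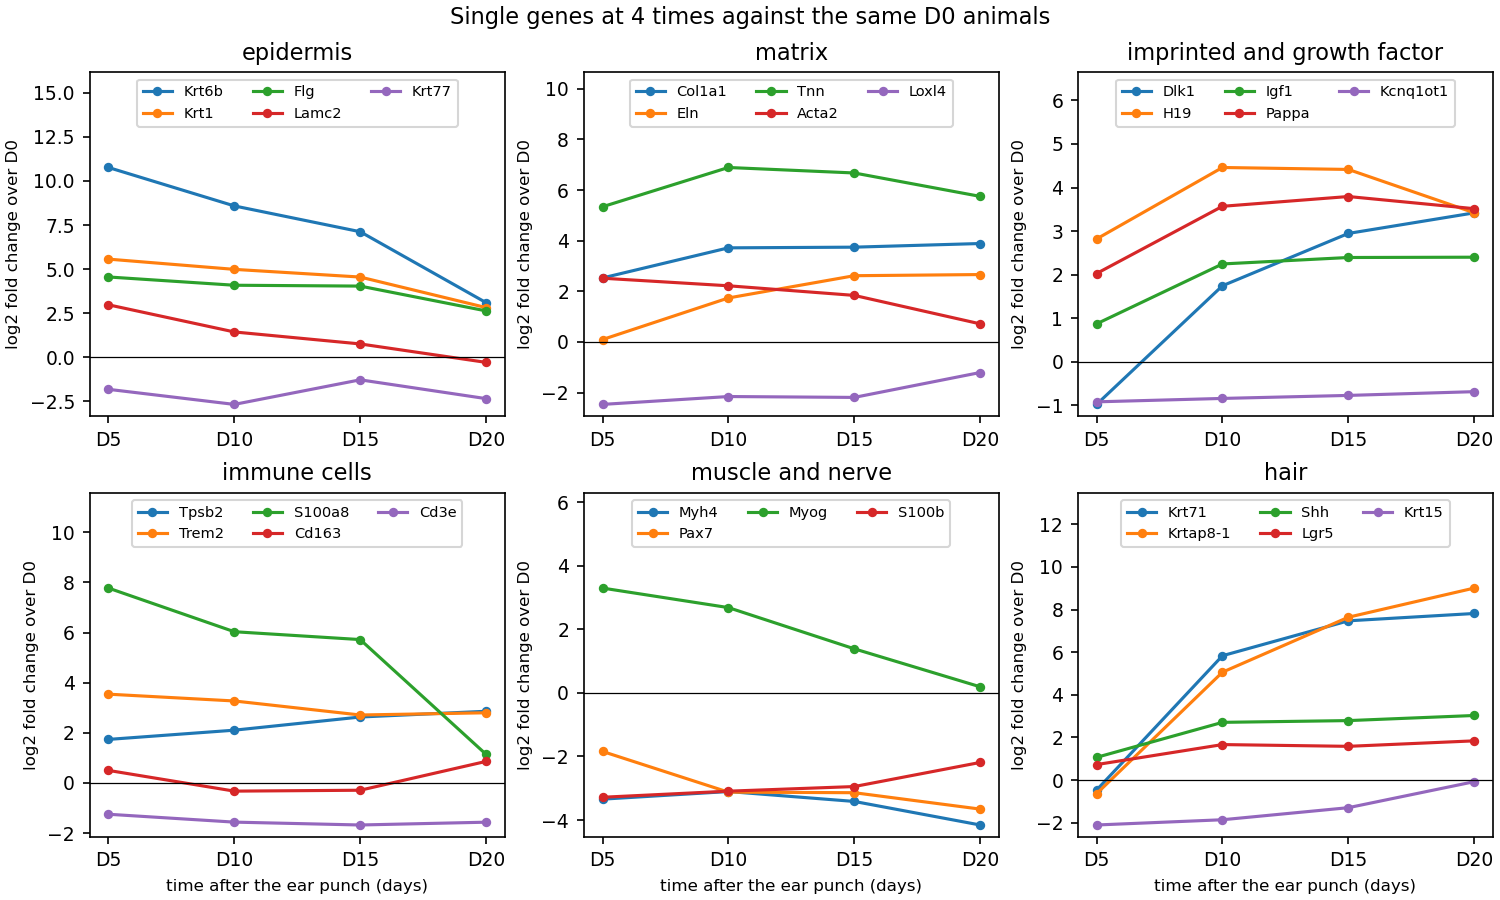
Log2 fold change over D0 of single genes at D5, D10, D15 and D20, in 6 groups. Krt6b falls from 10.76 to 3.10, Eln rises from 0.10 to 2.66 and Dlk1 from -0.98 to 3.42.

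Genes often used as controls were not constant. Of 9, 2 were called higher and 4 lower, 22.2% and 44.4%, beside 17.6% and 17.0% of genes with a mean of at least 10. *Gapdh* went from 4995 to 2755, *B2m* from 2352 to 1107 and *Actb* from 13026 to 15819. *Ppia* (2806 at D0 and 3119 at D20) was not called. The 68 ribosomal protein genes had a median of -0.06, with 19 called higher and 25 lower, shares of 27.9% and 36.8%. Of 16 genes that the study's account of its expression data names, 15 were measured, 8 of them called higher and none lower. *Mmp9* had no placed name. The list leaves out proteins that the study stained. Of their genes given above, *Mki67*, *Cdkn1b* and *Rb1* were called lower, *Adgre1* was called higher and *Cdkn1a* was not called. Stains of protein in sections, for some of phosphorylated or nuclear protein, are another measure than RNA of the whole ring. Several of the 15 listed genes were chosen by the study with these samples in view, so the count is no independent evidence of a direction. *Krt5*, *Krt17* and *Tbp*, the last an endogenous control of its PCR, were taken up for other reasons.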

How the data were processed

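Ear tissue RNA of 3 *M. musculus* per time point was sequenced by the authors as directional, rRNA-reduced, 50-bp paired-end libraries, aligned to mm10 and quantified with RSEM and Bowtie. The deposited table is the output of EBSeq and holds, per gene number, posterior probabilities of equal and of differential expression (score) and 2 ratios of D0 over D20, pooled over animals. Those columns are the authors' own comparison, so no probability or ratio is printed. The group means were solved from the 2 ratios, which add a constant of 0.01 in one case and a constant fitted per table in the other, and the probability served only to call genes at 0.95 or more. D0 means of the other 3 tables differed from those of the D20 table by 1 constant factor each (log2 of -0.08, 0.21 and -0.11 at the median), and agreed within 0.0031 on the log2 scale once it was removed. The table carries gene numbers, and names were placed by transcript order from 1992 genes named in a supplementary table, with matches to GENCODE vM21 (GRCm38) by minimap2 between them and a placement probability of at least 0.9. Of 1766 placed held-out names, 1759 were right (99.6%), and 226 stayed unplaced. Another 121 names of listed gene numbers were dropped because fewer than 3 of the 20 nearest named numbers lay on the same chromosome. No name could be placed for *Mmp9*, *Timp1*, *Adipoq*, *Cd68*, *Inhba* and *Tgfbr1*, among others, and list counts leave out such genes. Where numbers shared a name, one named in the supplementary table was used first, and otherwise the one with the most transcript bases. The log2 fold changes used a pseudocount of 1. A mean of 10 is 30 reads over 3 libraries, so its counting error is 18.3% before any spread between animals. Any list member could be named, first the 3 highest and 3 lowest called with a mean of at least 10, and, outside lists, the 15 highest and lowest called with a mean of at least 100. The gene groups and lists were chosen with earlier results of these data known. Lists of keratin layers, Krtap classes, wounded-epidermis keratins, mast cells, C1q, mitochondria, ribosomes, imprinting, insulin-like growth factors, elastic fibre, basement membrane and fibroblasts, and those of the closing section, were written after their values were seen. No statistical test was run on the pooled values. Alternatives were posterior probability thresholds, filters, pseudocounts, scaling and naming.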

Additional observations from a re-analysis of the deposited data

How the results depend on the processing

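The counts of called genes stayed within 1.5 times of the reported ones at a posterior probability of 0.99, with a larger mean of at least 10 and after rescaling or centring. A further requirement of a log2 fold change of at least 1 in size left 2173 genes, 1277 higher and 896 lower. Of the list medians, 216 values under alternatives moved by no more than a factor of 1.5 (its log2 on the log2 scale), which counted as unchanged, 17 moved further and 3 reversed, and the cartilage median also crossed 0. A pseudocount of 10 lowered the median of hair shaft genes to 5.29, Krtap genes to 4.59, inner root sheath keratins to 5.80, type I and type II hair keratins to 6.18 and 5.50, and the 3 Krtap classes to 5.37, 3.83 and 4.69, in the order given in the report, and that of mast cell genes to 1.57. A pseudocount of 0.01 raised the Krtap median to 8.05 and those of its classes to 9.66, 7.72 and 7.36. With only genes that a supplementary table of the study names, the medians were 2.47 for fibrillar collagens, 1.93 for collagen processing enzymes, -0.56 for basal and wound keratinocyte genes, 0.053 for cartilage and 1.98 for fibroblast genes. With a larger mean of at least 10, those of basal and wound keratinocyte genes and of neutrophil genes were -0.13 and -0.19. Fewer genes enter under either restriction. By the same tolerance, 2788 values of single genes were unchanged and 245 moved further. Rescaling to equal sums also carried genes that lay within its shift of 0.05 below 0 across it, *Krt5* and *Sox9* among them, none of them called. No paired analysis was possible because the deposited values are pooled over the animals of a group. For the same reason no animal could be left out. Low means limit lists such as the neutrophil, T and B cell and chemokine genes, and calls near the threshold could change with the spread between animals, which cannot be seen here.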

Other observations

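Further gene lists, written after the values had been seen, had these counts, and no list was tested as a set. Circadian clock and clock output genes were called lower for 12 of 20 and higher for 1, against 17.0% and 17.6% of the genes with a mean of at least 10. Neither the labels nor the methods give the time of day at which tissue was collected, and its part in these values was not tested. The output factors *Dbp* and *Hlf* fell from 563 to 233 and from 1859 to 614 and *Per2* from 292 to 146, while *Nfil3*, which represses the same sites that *Dbp* activates, rose from 31.1 to 86.1. *Arntl* (254 at D0 and 247 at D20) and *Per1* (531 at D0 and 368 at D20) were not called. The median log2 fold change was -0.83 (D5), -0.85 (D10), -0.82 (D15) and -0.68 (D20), each against the same D0 animals.

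Histone genes of the Hist1 to Hist3 clusters, which dividing cells transcribe during replication, were called higher for 26 of 53 and lower for none, with a median of 0.93 (0.91 with the 1 member at 0 at D0 set at its bound) after 1.81 at D5. *Hist1h2ah* rose from 8.77 to 64.6 and *Hist1h1c* from 575 to 1240.3. Their counts stand beside a proliferation list that had 2 called higher and 3 lower. Most of these transcripts lack a poly(A) tail, the libraries were made by depletion of rRNA, and the copies share much sequence, so single members are uncertain.

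Folding and export genes of the endoplasmic reticulum were called higher for 12 of 17 and lower for none, with *Fkbp10*, a prolyl isomerase that assists collagen, from 196 to 941 and *Kdelr3* from 56.0 to 234. Axon guidance ligands and receptors, which also act in skin and vessels, were called higher for 25 of 61 and lower for 7, beside the same 17.6% and 17.0%. *Sema4f* rose from 14.3 to 116, *Epha3* from 138 to 789, *Slit2* from 284 to 1079 and *Ephb2* from 95.7 to 340.4, while *Sema3d* fell from 2968 to 1024. Outside all lists, the highest genes with hair roles were *Gprc5d* (from 1.31 to 333) and *Vsig8* (from 4.45 to 767), and *Lyg2*, a goose-type lysozyme, rose from 3.72 to 457 and *Tgm6*, a transglutaminase, from 0.46 to 128. Among the lowest outside all lists were *Txlnb* (from 774 to 51.2), *Clcn1*, the muscle chloride channel (from 125 to 10.8), and *Smpx* (from 419.9 to 41.4).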
